A study of Mus musculus with 48 samples.

Results

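Tetraspanins are small proteins that cross the cell membrane several times, and the 6 genes described here are Cd63, Cd81, Cd9, Cd82, Cd53 and Cd37, which are known from macrophages, monocytes and other leukocytes. They were chosen by name out of 24537 gene rows, with earlier results of these data known. RNA was counted in immune cells taken by sorting from mouse colon tumours, which were induced by the carcinogen azoxymethane with dextran sulfate sodium, an agent that damages the gut epithelium. Every sample is labelled day 85. All groups share this treatment, so none is untreated. The gates used Ly6C, carried by inflammatory monocytes, and MHC class II, the antigen-presenting molecule. The populations are Ly6Clo MHCIIhi (8 replicates labelled ko and 8 labelled ctrl), Ly6Clo MHCIIlo (4 and 4), Ly6Chi MHCIIhi (4 and 4, of which 3 were used) and Ly6Chi MHCIIlo (4 and 4). The genotype ko means loss of Ccl17, which encodes a chemokine made by dendritic cells, and ctrl means control mice. Housing differed between some ko mice according to the design, but it is not labelled for single samples. No source used here gives the strain, the age, the kind of Ccl17 allele or any pooling of animals. Replicates are not labelled as different animals, and p-values therefore measure only the spread between these samples, which may be technical.

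Tetraspanins gather integrins, immune receptors and each other into patches of the cell membrane, and they shape how these partners signal, cluster and travel. CD63 sits mainly in late endosomes and lysosomes and is carried on exosomes, while CD9 and CD81 are found at the cell surface, bind the same immunoglobulin-family partners and limit the fusion of macrophages into giant cells. CD82 binds integrins and is known as a suppressor of metastasis in tumour cells, and CD53 and CD37 are largely restricted to leukocytes, CD37 being best known from B cells.

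The stretches before the starts of Cd63, Cd81 and Cd53 are shown because the first pair had its highest level in the Ly6Clo populations, whereas the mean of Cd53 was highest in Ly6Chi MHCIIlo. Each line holds 250 bases upstream of a RefSeq transcript start, 5′ to 3′ on the strand of the gene (GRCm38.p6). Capitals mark GAGGAA or its complement TTCCTC, and GGGCGG in either orientation. The windows lie at chr10:128909095-128909344 on the plus strand for Cd63, chr7:143052500-143052749 on the plus strand for Cd81 and chr3:106790150-106790399 on the minus strand for Cd53. The Cd63 window and the last bases of the Cd81 window lie inside the GENCODE spans of these genes, which begin at earlier starts.
Cd63: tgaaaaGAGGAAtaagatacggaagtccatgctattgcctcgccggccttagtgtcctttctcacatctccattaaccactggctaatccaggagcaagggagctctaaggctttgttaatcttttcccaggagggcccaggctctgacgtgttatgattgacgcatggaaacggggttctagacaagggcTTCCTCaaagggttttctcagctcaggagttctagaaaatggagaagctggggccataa
Cd81: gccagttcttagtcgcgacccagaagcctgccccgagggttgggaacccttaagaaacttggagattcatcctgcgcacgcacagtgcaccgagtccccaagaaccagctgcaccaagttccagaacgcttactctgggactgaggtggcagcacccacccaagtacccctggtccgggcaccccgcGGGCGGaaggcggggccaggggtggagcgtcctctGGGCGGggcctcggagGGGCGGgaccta
Cd53: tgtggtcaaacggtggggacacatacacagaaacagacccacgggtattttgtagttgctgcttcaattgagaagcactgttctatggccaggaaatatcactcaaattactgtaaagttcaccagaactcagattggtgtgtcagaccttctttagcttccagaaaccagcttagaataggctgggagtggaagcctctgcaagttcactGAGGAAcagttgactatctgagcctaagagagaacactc
The Cd63 window held GAGGAA letters 2 times, starting 244 and 59 bases before the start, and no GGGCGG. The Cd81 window held GGGCGG 3 times, starting 63, 28 and 12 bases before the start, and no GAGGAA. The Cd53 window held GAGGAA once, starting 39 bases before the start, and no GGGCGG. Of 32851 mouse windows of the same length, 23.3% held GAGGAA and 32.7% held GGGCGG on at least 1 strand, so neither is rare. The share of G and C bases was 48.8% for Cd63, 65.6% for Cd81 and 45.2% for Cd53, against a median of 52.4% over all windows. No window of these 3 genes held CACGTG or TATAAA. All 6 genes matched the RefSeq table by symbol, and these letter matches describe the windows only.

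Libraries held 8409 to 500683 counts each, with a median of 280060.5, and the 8409-count library, Ly6Chi MHCIIhi ctrl replicate 2, was left out. Levels are given as CPM, counts scaled to the normalised library size. Ccl17 itself stood at 0 to 7.09 CPM in ko and at 0 to 821 CPM in ctrl of Ly6Clo MHCIIhi, where 5 of 8 ctrl replicates lay above every ko replicate. In the other populations it rested on 1 to 14 counts per group, too few to check the labels. No source used here says which stretch of Ccl17 is lost, and tags outside it would check nothing. The gates were visible in Ly6c2, which averaged 27.2, 45.4, 558 and 1271 CPM in Ly6Clo MHCIIhi, Ly6Clo MHCIIlo, Ly6Chi MHCIIhi and Ly6Chi MHCIIlo. They were visible as well in Cd74, the chaperone of MHC class II, at 14215, 2712, 10291 and 1934 CPM in the same order. All 8 macrophage markers were detected in every population. Ly6Chi MHCIIhi ctrl replicate 1 stood apart from its population, with 23.0% of its counts from 5 red cell genes and a neutrophil marker sum of 61516 CPM, against 468 to 1740 CPM in the other libraries of that population. Ly6Chi MHCIIhi ctrl replicate 3 held only 34362 counts. Results that rest on Ly6Chi MHCIIhi are therefore given without ctrl replicate 1 as well where its removal changes the call or moves the value by over 1.5 times, and for the list genes named. These are bulk samples, so fewer cells of a type and less RNA per cell cannot be told apart.

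**Figure D1:**
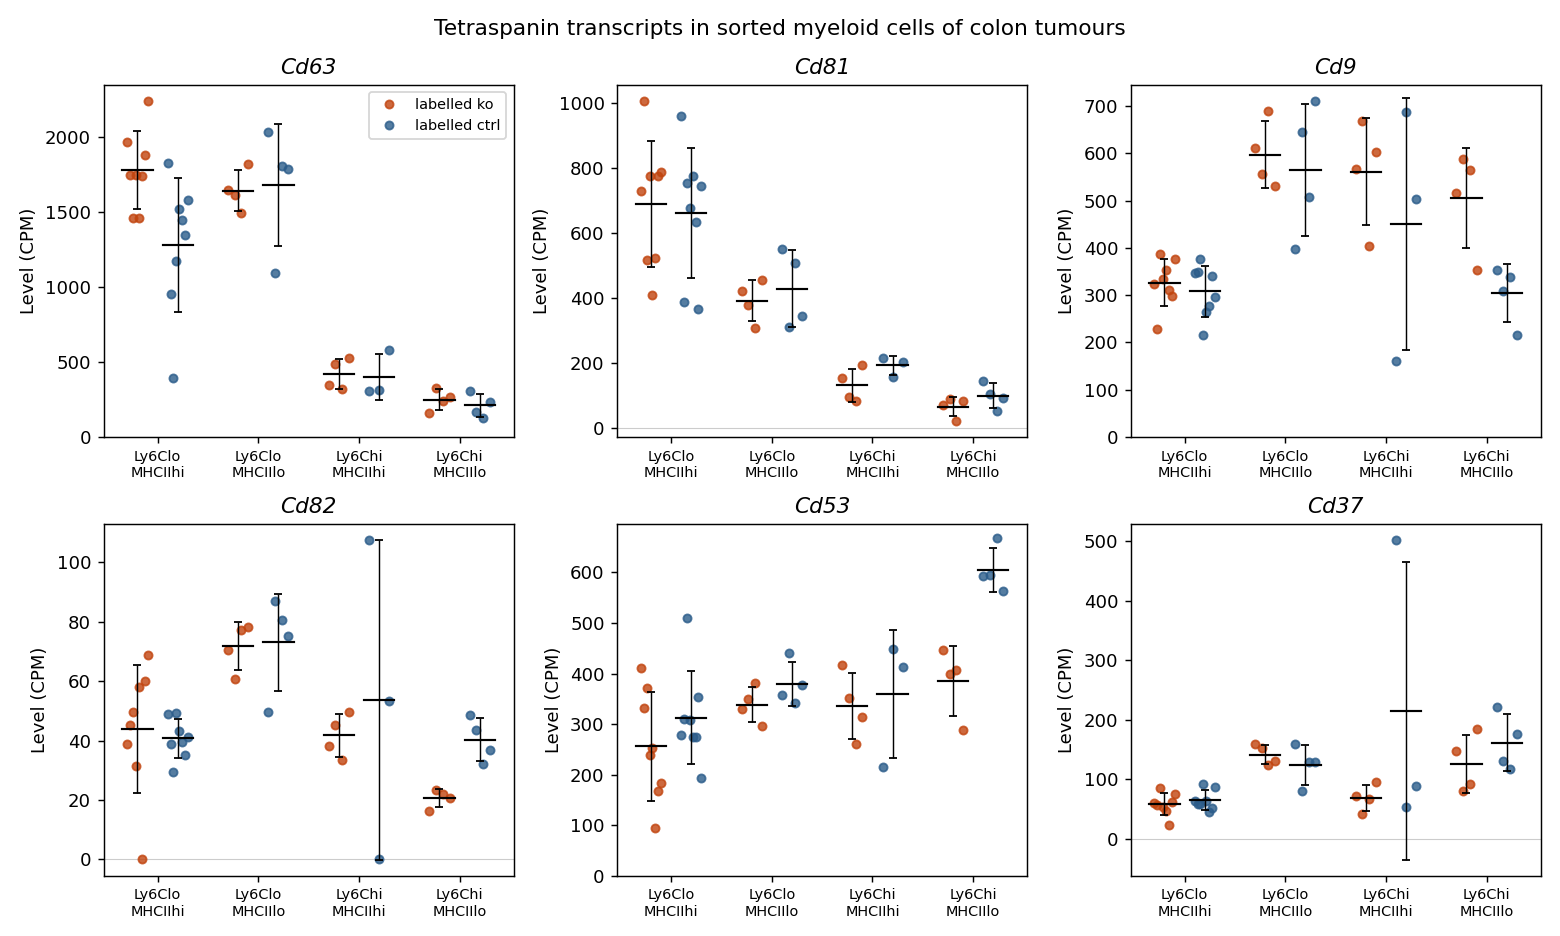
Level of each gene (CPM, linear axis) by population, with replicates labelled ko left of those labelled ctrl; points are replicates, lines are means and bars are SD. Cd63 and Cd81 run from high in the Ly6Clo populations to low in Ly6Chi MHCIIlo, and the Cd37 panel shows 1 ctrl replicate of Ly6Chi MHCIIhi at 502 CPM.

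Cd63, the late endosomal member, was higher in both Ly6Clo populations than in both Ly6Chi populations. Its lowest, median and highest levels were 391, 1552 and 2245 CPM over the 16 replicates of Ly6Clo MHCIIhi. They were 1093, 1719 and 2038 CPM over the 8 replicates of Ly6Clo MHCIIlo. In Ly6Chi MHCIIhi they were 305, 349 and 579 CPM over 7 replicates, and in Ly6Chi MHCIIlo 129, 237 and 329 CPM over 8 replicates. Every replicate of Ly6Clo MHCIIlo thus lay above every Ly6Chi replicate, and in Ly6Clo MHCIIhi a single replicate, ctrl replicate 3 at 391 CPM, fell into the range of Ly6Chi MHCIIhi. That replicate also had the lowest macrophage marker sum of its population, 8360 CPM, against a median of 13231 CPM. Its Cd81 level, 753 CPM, lay above the population median of 738 CPM. The part of macrophage transcripts in its Cd63 level was not tested. How many of all genes separate populations as Cd63 did was not computed.

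The differences were tested with edgeR's quasi-likelihood test with genotype in the model, and p-values were adjusted over all genes of a comparison by the method of Benjamini and Hochberg. An adjusted p under 0.05 is called passing. Cd63 was higher in Ly6Clo MHCIIlo than in Ly6Chi MHCIIlo by a log2 fold change of 2.93 (SE 0.17, adjusted p = 2.21e-12). Ly6Clo MHCIIhi exceeded Ly6Chi MHCIIlo by 2.74 (SE 0.20, adjusted p = 2.40e-12) and Ly6Chi MHCIIhi by 1.88 (SE 0.21, adjusted p = 3.32e-07). Ly6Clo MHCIIlo exceeded Ly6Chi MHCIIhi by 2.01 (SE 0.18, adjusted p = 1.22e-07). Within the Ly6Chi cells, Cd63 was higher with high MHC class II, by 0.92 (SE 0.20, adjusted p = 0.0142). This call ended without Ly6Chi MHCIIhi ctrl replicate 4 (0.77, adjusted p = 0.0942) and among ctrl samples alone (1.09, adjusted p = 0.373). The Ly6Clo populations, next to each other in the order, did not differ beyond their spread (Ly6Clo MHCIIhi over Ly6Clo MHCIIlo -0.16, SE 0.16, adjusted p = 0.477). Among ctrl samples alone, Cd63 in Ly6Clo MHCIIhi over Ly6Chi MHCIIhi was 1.56 (adjusted p = 0.0502).

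Cd63 spans chr10:128900989-128912822 on the plus strand (GRCm38) and overlaps no other annotated gene. A processed pseudogene on chromosome 18, Cd63-ps, matches its transcript at 98% of 858 aligned bases up to the 3′ end, the end that is sequenced, so reads may be split between the rows. Counts in the pseudogene row were 0.421 ± 0.0394 of those in the Cd63 row in Ly6Clo MHCIIhi (SD, n = 16) and 0.403 ± 0.0315 in Ly6Clo MHCIIlo (SD, n = 8). The shares were 0.331 ± 0.122 in Ly6Chi MHCIIhi (SD, n = 7) and 0.358 ± 0.0744 in Ly6Chi MHCIIlo (SD, n = 8). Adding both rows, an alternative chosen after seeing the data, left each call on Cd63 as it was, with folds of 2.98 for Ly6Clo MHCIIlo over Ly6Chi MHCIIlo and 0.92 for Ly6Chi MHCIIhi over Ly6Chi MHCIIlo.

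Cd81, a surface tetraspanin of many cell types, differed with both gates. Its lowest, median and highest levels were 367, 738 and 1007 CPM in Ly6Clo MHCIIhi and 309, 401 and 552 CPM in Ly6Clo MHCIIlo. They were 84.0, 158 and 215 CPM in Ly6Chi MHCIIhi and 22.0, 86.1 and 146 CPM in Ly6Chi MHCIIlo. No replicate of a Ly6Clo population overlapped with a Ly6Chi replicate, while neighbouring populations of the same Ly6C level overlapped. The share of all genes that separate the Ly6C levels in this way was not computed. Ly6Clo MHCIIhi exceeded Ly6Clo MHCIIlo by 0.71 (SE 0.16, adjusted p = 0.00148), Ly6Chi MHCIIhi by 2.13 (SE 0.22, adjusted p = 1.12e-07) and Ly6Chi MHCIIlo by 3.06 (SE 0.23, adjusted p = 4.20e-12).

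Ly6Clo MHCIIlo exceeded Ly6Chi MHCIIhi in Cd81 by 1.40 (SE 0.20, adjusted p = 3.41e-05) and Ly6Chi MHCIIlo by 2.39 (SE 0.21, adjusted p = 2.94e-09). Ly6Chi MHCIIhi exceeded Ly6Chi MHCIIlo by 1.05 (SE 0.26, adjusted p = 0.0358). This last call of Cd81 ended without Ly6Chi MHCIIhi ctrl replicate 4 (1.06, adjusted p = 0.103), ko replicate 1 (1.02, 0.0652) or ko replicate 4 (0.93, 0.0876), and without Ly6Chi MHCIIlo ctrl replicate 4 (1.04, 0.0542) or ko replicate 1 (1.08, 0.0503). Among ctrl samples alone Cd81 kept its sign but did not pass in Ly6Clo MHCIIhi over Ly6Clo MHCIIlo (0.61, adjusted p = 0.109), in Ly6Clo MHCIIlo over Ly6Chi MHCIIhi (1.09, adjusted p = 0.112) or in Ly6Chi MHCIIhi over Ly6Chi MHCIIlo (1.09, adjusted p = 0.389). Cd81 lies at chr7:143052739-143067934 on the plus strand, and its start overlaps R74862 on the other strand. Whether counting used the strand is not stated, so reads from both could not be told apart there. Both genes start in that stretch, whereas the 3′ end is sequenced.

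The summed level of 8 macrophage markers (Adgre1, C1qa, C1qb, C1qc, Csf1r, Mrc1, Mertk and Fcgr1) ran in the order of Cd81. It was 8360 to 18124 CPM in Ly6Clo MHCIIhi, 7432 to 13773 CPM in Ly6Clo MHCIIlo, 2403 to 6027 CPM in Ly6Chi MHCIIhi and 1504 to 2850 CPM in Ly6Chi MHCIIlo. Adgre1 by itself did not keep this order within the Ly6Chi cells, with medians of 50.4 CPM in Ly6Chi MHCIIhi and 66.6 CPM in Ly6Chi MHCIIlo. The order thus holds for the sum, and the other markers are not given singly. The summed level of 8 monocyte markers ran the other way between the Ly6C levels, at 442 to 1898, 503 to 1180, 2511 to 7361 and 5771 to 9897 CPM in the same populations. The monocyte markers include Ly6c2, a gene of the Ly6C gate, so their sum is not independent of the sorting. The part of these marker shifts in the values of Cd63 and Cd81 was not tested.

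**Figure D2:**
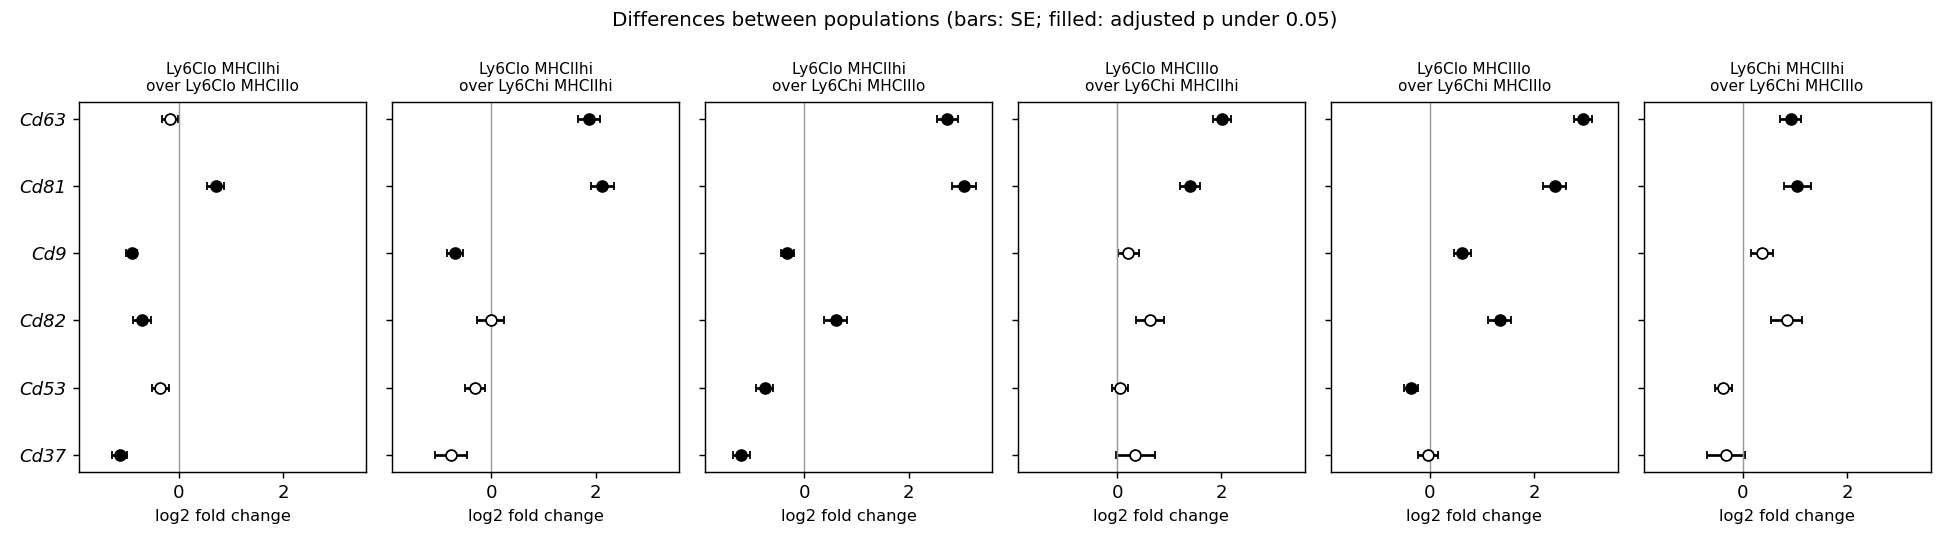
Log2 fold change of each gene between each pair of populations (edgeR, genotype in the model), with the first-named population on top; points are estimates, bars are SE and filled points have an adjusted p under 0.05. Cd63 and Cd81 lie right of 0 wherever a Ly6Clo population is set over a Ly6Chi one, and Cd37 and Cd53 lie left of 0 in Ly6Clo MHCIIhi over Ly6Chi MHCIIlo.

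Cd9, the surface partner of CD81, did not follow Cd81. From lowest over median to highest, its levels were 216, 329 and 387 CPM in Ly6Clo MHCIIhi and 398, 584 and 710 CPM in Ly6Clo MHCIIlo. They were 161, 567 and 686 CPM in Ly6Chi MHCIIhi and 217, 353 and 587 CPM in Ly6Chi MHCIIlo. All 16 replicates of Ly6Clo MHCIIhi lay below all 8 of Ly6Clo MHCIIlo, a separation whose share over all genes was not computed. The 161 CPM belongs to Ly6Chi MHCIIhi ctrl replicate 1, without which that population began at 403 CPM. Cd9 was lower in Ly6Clo MHCIIhi than in Ly6Clo MHCIIlo by a log2 fold change of -0.90 (SE 0.11, adjusted p = 4.35e-07), and lower than in Ly6Chi MHCIIhi at -0.69 (SE 0.15, adjusted p = 0.00166). Without Ly6Chi MHCIIhi ctrl replicate 1 the second value was -0.82 (adjusted p = 1.96e-05), and among ctrl samples alone it was -0.61 (adjusted p = 0.345).

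Ly6Clo MHCIIlo exceeded Ly6Chi MHCIIlo in Cd9 by 0.62 (SE 0.16, adjusted p = 0.00326), but its neighbour in the order, Ly6Chi MHCIIhi, did not differ from it beyond the spread (Ly6Clo MHCIIlo over Ly6Chi MHCIIhi 0.22, SE 0.20, adjusted p = 0.447, and 0.079 without Ly6Chi MHCIIhi ctrl replicate 1). Ly6Chi MHCIIhi over Ly6Chi MHCIIlo stood at 0.37 (SE 0.21, adjusted p = 0.409). Cd9 in Ly6Clo MHCIIhi over Ly6Chi MHCIIlo was -0.32 (SE 0.13, adjusted p = 0.0421). This narrow call ended without ko replicate 1, 2, 4, 5 or 7 or ctrl replicate 4, 5, 6 or 8 of Ly6Clo MHCIIhi, and without ko replicate 1, 2 or 3 or ctrl replicate 1 of Ly6Chi MHCIIlo, with folds of -0.33 to -0.25 and adjusted p of 0.0518 to 0.114. It ended as well with no count filter (-0.34, 0.0911), with all 8 groups in 1 fit (-0.31, 0.0752), with the first library of each replicate alone (-0.32, 0.0552) and with libraries matched for barcode class, a choice made after seeing the data (-0.27, 0.155). Among ctrl samples alone the fold was 0.020 (adjusted p = 0.959). Cd9 spans chr6:125460266-125494791 on the minus strand, and 2 RNA genes without known protein, Gm28809 and Gm26728, overlap it on the other strand.

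Cd82 was the least counted of the 6 genes, with 348, 111, 56 and 64 counts in Ly6Clo MHCIIhi, Ly6Clo MHCIIlo, Ly6Chi MHCIIhi and Ly6Chi MHCIIlo. Its lowest, median and highest levels were 0, 42.2 and 68.9 CPM in Ly6Clo MHCIIhi and 49.7, 76.3 and 86.8 CPM in Ly6Clo MHCIIlo. They were 0, 45.4 and 108 CPM in Ly6Chi MHCIIhi and 16.3, 27.8 and 48.6 CPM in Ly6Chi MHCIIlo. The values of 0 belong to shallow libraries, Ly6Clo MHCIIhi ko replicate 6 with 39872 counts and Ly6Chi MHCIIhi ctrl replicate 3 with 34362 counts. Ly6Clo MHCIIlo was higher than Ly6Chi MHCIIlo by 1.34 (SE 0.22, adjusted p = 3.23e-05). These populations only just failed to overlap, at 49.7 against 48.6 CPM, values that rest on 10 and 14 counts. A single count could close that gap, and the share of all genes that do not overlap was not computed. Cd82 was lower in Ly6Clo MHCIIhi than in Ly6Clo MHCIIlo, at -0.69 (SE 0.17, adjusted p = 0.00342), a call that ended with no count filter (-0.55, adjusted p = 0.0984).

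Against Ly6Chi MHCIIlo, Cd82 in Ly6Clo MHCIIhi was higher by 0.61 (SE 0.22, adjusted p = 0.0267). This ended without ko replicate 1, 2, 3 or 4 of Ly6Chi MHCIIlo (0.50 to 0.57, adjusted p = 0.0523 to 0.0811), with no count filter (0.60, 0.0751) and with barcode-matched libraries (0.61, 0.0649), and among ctrl samples alone the fold was 0.045 (adjusted p = 0.944). Ly6Clo MHCIIlo over Ly6Chi MHCIIhi was 0.63 (SE 0.27, adjusted p = 0.0916), and it passed without Ly6Chi MHCIIhi ctrl replicate 1 (0.79, adjusted p = 0.0228). The other comparisons of Cd82 did not pass, with -0.012 for Ly6Clo MHCIIhi over Ly6Chi MHCIIhi (SE 0.26, adjusted p = 0.987), or 0.15 (adjusted p = 0.740) without that replicate, and 0.84 for Ly6Chi MHCIIhi over Ly6Chi MHCIIlo (SE 0.30, adjusted p = 0.138). Cd82 spans chr2:93419111-93463140 on the minus strand and contains the miRNA gene Mir7001 on its own strand, with the noncoding gene Gm10804 on the other.

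Cd53, a leukocyte tetraspanin, had its highest mean in Ly6Chi MHCIIlo. The lowest, median and highest replicate stood at 95.4, 276 and 510 CPM in Ly6Clo MHCIIhi and 296, 354 and 441 CPM in Ly6Clo MHCIIlo. They were 215, 351 and 449 CPM in Ly6Chi MHCIIhi and 287, 506 and 668 CPM in Ly6Chi MHCIIlo. The populations all overlapped. Cd53 was lower in Ly6Clo MHCIIhi than in Ly6Chi MHCIIlo, at -0.76 (SE 0.16, adjusted p = 3.12e-04), and lower in Ly6Clo MHCIIlo than in Ly6Chi MHCIIlo, at -0.37 (SE 0.13, adjusted p = 0.0288). The second call ended without ctrl replicate 1, 3 or 4 or ko replicate 4 of Ly6Clo MHCIIlo, and without ctrl replicate 1, 3 or 4 or ko replicate 1 of Ly6Chi MHCIIlo (-0.35 to -0.30, adjusted p = 0.0543 to 0.0774), and with all 8 groups in 1 fit (-0.43, adjusted p = 0.0566).

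Ly6Clo MHCIIhi over Ly6Clo MHCIIlo stood at -0.35 for Cd53 (SE 0.16, adjusted p = 0.103), and it passed without Ly6Clo MHCIIhi ctrl replicate 3 (-0.41, adjusted p = 0.0340) and with libraries matched for barcode class (-0.44, adjusted p = 0.0312), a choice made after seeing the data. With matched libraries Ly6Clo MHCIIhi over Ly6Chi MHCIIlo was -0.84. The other comparisons of Cd53 did not pass, at -0.32 for Ly6Clo MHCIIhi over Ly6Chi MHCIIhi (SE 0.19), 0.052 for Ly6Clo MHCIIlo over Ly6Chi MHCIIhi (SE 0.15) and -0.37 for Ly6Chi MHCIIhi over Ly6Chi MHCIIlo (SE 0.17), with adjusted p of 0.276, 0.984 and 0.273. Without Ly6Chi MHCIIhi ctrl replicate 1 these were -0.39, -0.028 and -0.26. Cd53 lies at chr3:106759921-106790149 on the minus strand and overlaps no annotated gene.

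Cd37, a tetraspanin of B cells and other leukocytes, was lowest in Ly6Clo MHCIIhi. The lowest, median and highest replicate stood at 23.8, 59.8 and 92.5 CPM in Ly6Clo MHCIIhi and 79.6, 129.9 and 159 CPM in Ly6Clo MHCIIlo. They were 41.6, 72.8 and 502 CPM in Ly6Chi MHCIIhi and 79.9, 139 and 222 CPM in Ly6Chi MHCIIlo. The 502 CPM is Ly6Chi MHCIIhi ctrl replicate 1, the library with red cell and neutrophil transcripts, and the other 6 replicates of that population lay between 41.6 and 95.1 CPM. Cd37 in Ly6Clo MHCIIhi was lower than in Ly6Clo MHCIIlo, at -1.13 (SE 0.14, adjusted p = 9.13e-07), and lower than in Ly6Chi MHCIIlo, at -1.20 (SE 0.16, adjusted p = 3.03e-07). Ly6Clo MHCIIlo and Ly6Chi MHCIIlo did not differ beyond their spread (-0.040, SE 0.19, adjusted p = 0.890).

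The place of Ly6Chi MHCIIhi in the order of Cd37 turned on that single library. With it, Ly6Clo MHCIIhi over Ly6Chi MHCIIhi was -0.78 (SE 0.30, adjusted p = 0.0739), Ly6Clo MHCIIlo over Ly6Chi MHCIIhi 0.35 (SE 0.37, adjusted p = 0.523) and Ly6Chi MHCIIhi over Ly6Chi MHCIIlo -0.32 (SE 0.36, adjusted p = 0.735). Without it, the first value of Cd37 was -0.22 (adjusted p = 0.484), the second passed at 0.95 (adjusted p = 0.00162) and the third passed at -0.89 (adjusted p = 0.0383). The first passed in turn without Ly6Chi MHCIIhi ko replicate 2 (-0.96, adjusted p = 0.0309), with all 8 groups in 1 fit (-0.87, adjusted p = 0.0148) and by DESeq2 (-0.94, adjusted p = 0.0238). Cd37 spans chr7:45233632-45239115 on the minus strand and shares its last bases with the end of Tead2 on the other strand. The 3′ end is sequenced, and whether counting used the strand is not stated, so reads from both could not be told apart there.

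Neutrophil transcripts moved with Cd37. The 8 neutrophil markers, all in the table, summed to 343 to 1769 CPM in Ly6Clo MHCIIhi and 5484 to 30994 CPM in Ly6Clo MHCIIlo. They summed to 468 to 61516 CPM in Ly6Chi MHCIIhi, or 468 to 1740 CPM without ctrl replicate 1, and to 6010 to 16373 CPM in Ly6Chi MHCIIlo. Cxcr1 had 0 counts in both MHCIIhi populations. The part of neutrophil transcripts in the level of Cd37 was not tested. B cells are another known source of Cd37, and the 8 B and plasma cell markers, all in the table, summed to 48.8 to 31189 CPM in Ly6Clo MHCIIhi, 58.8 to 4711 in Ly6Clo MHCIIlo, 70.3 to 13821 in Ly6Chi MHCIIhi and 68.2 to 6155 in Ly6Chi MHCIIlo. Of these 8 markers 0 had no counts in Ly6Clo MHCIIhi, 4 in Ly6Clo MHCIIlo, 1 in Ly6Chi MHCIIhi and 4 in Ly6Chi MHCIIlo, and Cd79a and Ms4a1 were among those at 0 in both MHCIIlo populations. The part of B and plasma cell transcripts in the level of Cd37 was not tested either.

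Counted over the 6 genes, Ly6Clo MHCIIhi against Ly6Clo MHCIIlo gave 4 passing members, where 27.6% of 4341 tested genes passed. Against Ly6Chi MHCIIhi it gave 3, with 17.4% of 4940 genes, and against Ly6Chi MHCIIlo 6, with 43.8% of 5197 genes. Ly6Clo MHCIIlo against Ly6Chi MHCIIhi gave 2, with 25.4% of 3542 genes, and against Ly6Chi MHCIIlo 5, with 39% of 3837 genes. Ly6Chi MHCIIhi against Ly6Chi MHCIIlo gave 2, Cd63 and Cd81, where only 3.23% of 4117 genes passed. Cd63 passed in 5 of the 6 comparisons and Cd81 in 6, and all 6 members passed the count filter in each of them. Comparisons that share a population share its samples, so their results are not independent.

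The comparison of ko with ctrl asks whether loss of Ccl17 goes with a change of these transcripts within a population. No member passed in any population by edgeR or by DESeq2. In Ly6Clo MHCIIhi edgeR called 0 of 5660 genes (0%), with 296 at an unadjusted p under 0.05, and DESeq2 called 0. In Ly6Clo MHCIIlo it called 1 of 3182 (0.0314%), in Ly6Chi MHCIIhi 0 of 3509 (0%) with 245 at an unadjusted p under 0.05 and 4 by DESeq2, and in Ly6Chi MHCIIlo 3 of 3966 (0.0756%). Among the members, 1 reached an unadjusted p under 0.05 in Ly6Clo MHCIIhi (5.23% of all genes did), 0 in Ly6Clo MHCIIlo (4.27%), 1 in Ly6Chi MHCIIhi (6.98%) and 2 in Ly6Chi MHCIIlo (11.2%), where 5 members could be tested. Each library carried a barcode of 6 bases, called G/C-rich here when at least 3 were G or C. In Ly6Clo MHCIIlo, Ly6Chi MHCIIhi and Ly6Chi MHCIIlo every ko library was G/C-rich and every ctrl library A/T-rich, so in these populations genotype and barcode class cannot be told apart.

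Cd63 was the member with an unadjusted p under 0.05 in Ly6Clo MHCIIhi. Its lowest, median and highest levels were 1462, 1749 and 2245 CPM in the 8 ko replicates and 391, 1399.5 and 1832 CPM in the 8 ctrl replicates. The groups overlapped, although all 8 ko replicates lay above the ctrl mean of 1281 CPM. The log2 fold change was 0.46 (SE 0.19, adjusted p = 0.888), and 0.32 without ctrl replicate 3. In Ly6Clo MHCIIlo the fold of Cd63 was -0.030 (SE 0.17), in Ly6Chi MHCIIhi -0.11 (SE 0.29) and in Ly6Chi MHCIIlo 0.21 (SE 0.27).

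In Ly6Chi MHCIIlo, Cd9 stood at 516, 587, 564 and 353 CPM in ko replicates 1 to 4, against 354, 309.7 and 339 CPM in ctrl replicates 1 to 3 and 217 CPM in ctrl replicate 4. Only ko replicate 4 lay within the ctrl range. The log2 fold change was 0.70 (SE 0.22, unadjusted p = 0.00557, edgeR adjusted p = 0.246), and it lay between 0.57 and 0.86 when single replicates were left out. The folds of Cd9 elsewhere were 0.097 in Ly6Clo MHCIIhi (SE 0.13), 0.089 in Ly6Clo MHCIIlo (SE 0.19) and 0.21 in Ly6Chi MHCIIhi (SE 0.37).

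Cd53 in Ly6Chi MHCIIlo stood at 447, 399, 406 and 287 CPM in ko replicates 1 to 4, against 594, 595, 668 and 564 CPM in ctrl replicates 1 to 4. All ko replicates lay below all ctrl replicates, and the share of all genes that separate in this way was not computed. The log2 fold change was -0.67 (SE 0.18, unadjusted p = 0.00214, edgeR adjusted p = 0.204). In the other populations the fold of Cd53 was -0.22 in Ly6Clo MHCIIhi (SE 0.21), -0.16 in Ly6Clo MHCIIlo (SE 0.17) and -0.22 in Ly6Chi MHCIIhi (SE 0.28).

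Cd82 fell under the count filter in the ko and ctrl samples of Ly6Chi MHCIIlo, with 23 counts in all ko and 41 in all ctrl replicates, so no fold was fitted there. Its levels were 16.3, 23.5, 22.0 and 20.7 CPM in ko replicates 1 to 4 and 48.6, 43.6, 32.1 and 36.8 CPM in ctrl replicates 1 to 4. The groups did not overlap. Means of log2(CPM + 1) differed by -0.93, and a two-sided exact permutation test gave p = 0.0286, which is the smallest that 4 against 4 samples allow. This p is unadjusted, and the share of all genes that reach it or do not overlap was not computed. By edgeR 11.2% of the genes tested in this population had an unadjusted p under 0.05. Genotype and barcode class cannot be told apart there. The fold of Cd82 was 0.28 in Ly6Clo MHCIIhi (SE 0.20), -0.012 in Ly6Clo MHCIIlo (SE 0.29) and -0.52 in Ly6Chi MHCIIhi (SE 0.55).

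Cd37 had the member fold farthest from 0 between genotypes, -1.68 in Ly6Chi MHCIIhi (SE 0.64, unadjusted p = 0.0229, edgeR adjusted p = 0.709). Its levels were 72.8, 41.6, 67.2 and 95.1 CPM in ko replicates 1 to 4, against 502, 52.8 and 89.0 CPM in ctrl replicates 1, 3 and 4. Without ctrl replicate 1 the fold was -0.28 (SE 0.44, adjusted p = 0.982), so a single library carried most of it. Without that library ko over ctrl in Ly6Chi MHCIIhi was -0.26 for Cd63, -0.083 for Cd9, -0.070 for Cd82 and -0.39 for Cd53, and no member passed by edgeR. The folds of Cd37 were -0.062, 0.17 and -0.37 in Ly6Clo MHCIIhi, Ly6Clo MHCIIlo and Ly6Chi MHCIIlo (SE 0.18, 0.23 and 0.28).

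Cd81 stood below ctrl in ko of both Ly6Chi populations without passing. In Ly6Chi MHCIIhi it had 153, 94.5, 84.0 and 194 CPM in ko replicates 1 to 4 and 215, 158 and 205 CPM in ctrl replicates 1, 3 and 4 (log2 fold change -0.67, SE 0.34, adjusted p = 0.709). In Ly6Chi MHCIIlo it had 71.8, 89.3, 22.0 and 83.0 CPM in ko and 146, 106, 53.6 and 94.0 CPM in ctrl replicates (-0.61, SE 0.37, adjusted p = 0.560). The groups overlapped in both. The fold of Cd81 was 0.050 in Ly6Clo MHCIIhi (SE 0.18) and -0.13 in Ly6Clo MHCIIlo (SE 0.20).

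Whether the difference between genotypes varied with the population was tested as an interaction over the 4 populations. No member passed, while 4 of 6032 genes did (0.0663%), with 402 genes at an unadjusted p under 0.05 and 11 called by DESeq2. Unadjusted, 2 members stood under 0.05, where 6.66% of genes did. The adjusted p of the members ran from 0.700 for Cd82 to 0.953 for Cd63, and the 2 members were Cd82 (unadjusted p = 0.0286) and Cd37 (unadjusted p = 0.0315).

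**Figure D3:**
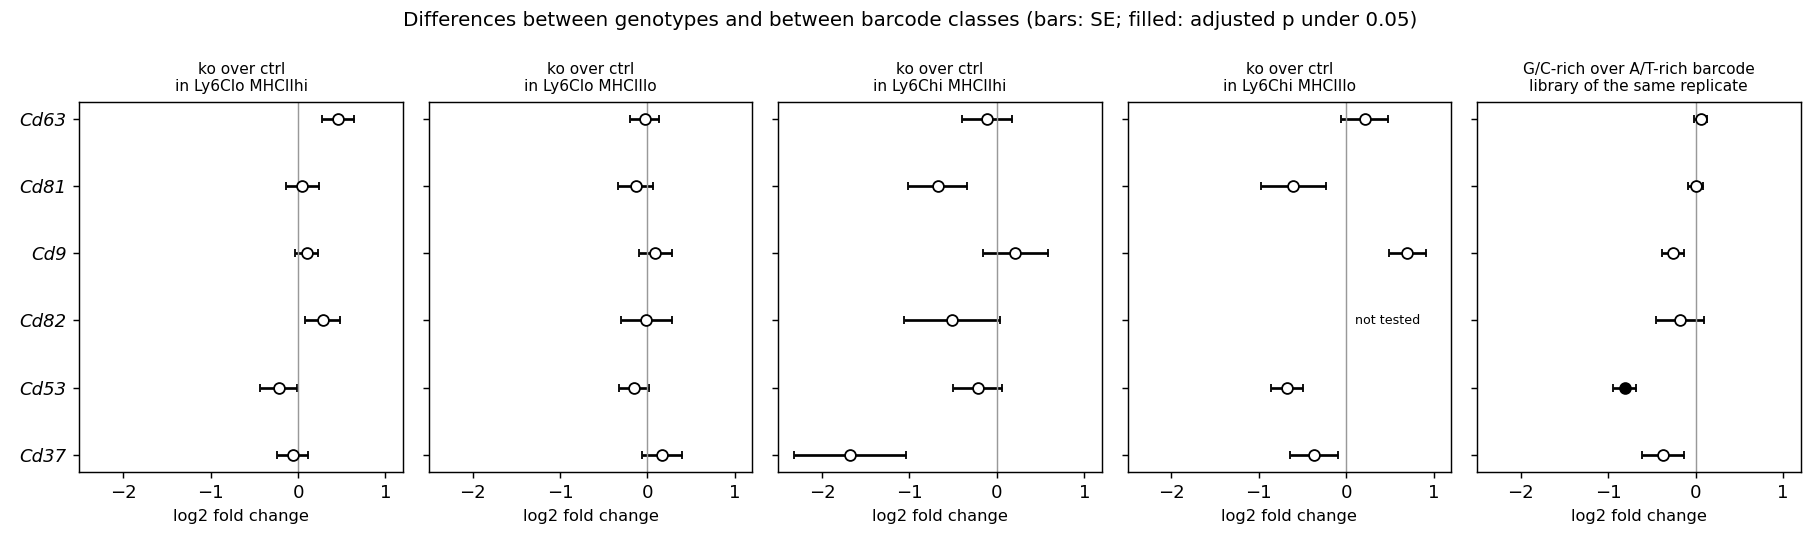
Log2 fold change of each gene, ko over ctrl in each population, and G/C-rich over A/T-rich barcode library of the same replicate in the last panel (edgeR); points are estimates, bars are SE and filled points have an adjusted p under 0.05. Every genotype panel holds open points only, and the single filled point is Cd53 at -0.81 in the barcode panel.

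Cd53 differed between libraries of different barcode class. Within Ly6Clo MHCIIhi, 8 of 12 ko libraries and 4 of 12 ctrl libraries were G/C-rich, and 5 replicates had a library of each class. In these 5, Cd53 stood at 207 CPM in the G/C-rich and 270.4 CPM in the A/T-rich library of ko replicate 4, at 224 and 327 CPM in those of ctrl replicate 5 and at 208 and 347 CPM in those of ctrl replicate 6. It stood at 215 and 493 CPM in ctrl replicate 7 and at 131.5 and 327 CPM in ctrl replicate 8. The G/C-rich library was lower in 5 of 5 replicates, at 0.402 to 0.765 of the A/T-rich one.

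With the replicate in the model, Cd53 was lower in G/C-rich libraries by a log2 difference of -0.81 (SE 0.13, edgeR adjusted p = 4.60e-04). It was the 1 member that passed, where 94 of 6111 genes did (1.54%), 85 with the lower value in the G/C-rich class. DESeq2 called Cd53 as well. The other members were at 0.061 for Cd63 (SE 0.073), 0.00075 for Cd81 (SE 0.090), -0.26 for Cd9 (SE 0.13), -0.18 for Cd82 (SE 0.28) and -0.37 for Cd37 (SE 0.24), with adjusted p from 0.555 to 1.00. The G/C-rich library was the first of the pair in 4 of 5 replicates, so class and library number were nearly the same split. In the populations where genotype and barcode class were the same split, ko over ctrl of Cd53 was -0.67 in Ly6Chi MHCIIlo and -0.16 in Ly6Clo MHCIIlo. In Ly6Chi MHCIIhi it was -0.22, or -0.39 without ctrl replicate 1. The part of barcode class in these values was not tested. In Ly6Clo MHCIIhi, with the first library of each replicate alone, ko over ctrl was 0.022 for Cd53, and with barcode class added to that model it was -0.042 (SE 0.18), while Cd63 stood at 0.46 (SE 0.18).

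**Figure D4:**
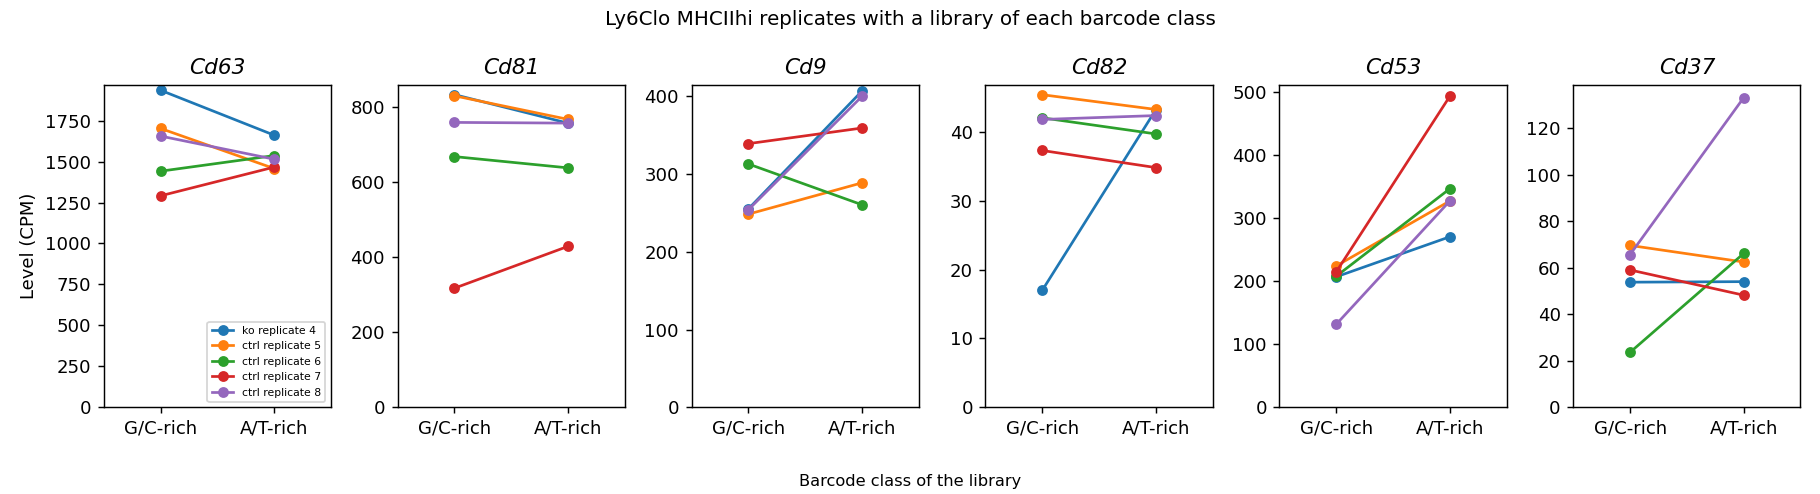
Level (CPM, linear axis from 0) of each gene in the G/C-rich and the A/T-rich barcode library of the same replicate; each line is 1 of 5 Ly6Clo MHCIIhi replicates, ko replicate 4 and ctrl replicates 5 to 8. All 5 lines rise towards the A/T-rich library for Cd53, while the lines of the other genes run both ways.

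Of 25 other tetraspanins listed, 22 are in the table and 3 to 6 passed the count filter in a comparison of 2 groups. Tspan4, known for its place in the migrasomes of moving cells, was higher in both Ly6Clo populations than in Ly6Chi MHCIIlo. It averaged 51.0 CPM in Ly6Clo MHCIIhi, 58.4 in Ly6Clo MHCIIlo, 12.6 in Ly6Chi MHCIIhi and 6.03 in Ly6Chi MHCIIlo. In Ly6Chi MHCIIlo its median was 3.87 CPM and its lowest value 0. Such values rest on very few counts, so the size of Tspan4 folds against that population is uncertain. Its fold was 3.35 in Ly6Clo MHCIIlo over Ly6Chi MHCIIlo (adjusted p = 6.93e-07), 3.19 in Ly6Clo MHCIIhi over Ly6Chi MHCIIlo (adjusted p = 3.92e-08) and 1.74 in Ly6Clo MHCIIhi over Ly6Chi MHCIIhi (adjusted p = 4.30e-04), or 1.69 without Ly6Chi MHCIIhi ctrl replicate 1. Tspan4 did not pass between the Ly6Clo populations (-0.19, adjusted p = 0.574) and fell under the count filter in Ly6Chi MHCIIhi over Ly6Chi MHCIIlo. It also fell under it in Ly6Clo MHCIIlo over Ly6Chi MHCIIhi, where it was tested and passed without Ly6Chi MHCIIhi ctrl replicate 1 (1.81, adjusted p = 5.77e-04). Tspan13 was lower in Ly6Clo MHCIIlo than in the other populations, at 70.5 CPM, against 228, 239 and 236 CPM in Ly6Clo MHCIIhi, Ly6Chi MHCIIhi and Ly6Chi MHCIIlo. Ly6Clo MHCIIhi exceeded Ly6Clo MHCIIlo in Tspan13 by 1.69 (adjusted p = 3.21e-08) and in Tspan31 by 0.58 (adjusted p = 0.0171). Tspan13 in Ly6Clo MHCIIlo was -1.67 against both Ly6Chi MHCIIhi (adjusted p = 1.40e-05) and Ly6Chi MHCIIlo (adjusted p = 4.21e-07), and the first was -1.74 without Ly6Chi MHCIIhi ctrl replicate 1. Over the 6 population comparisons in the order above, 2 of 5, 1 of 5, 1 of 5, 1 of 4, 2 of 5 and 0 of 4 tested passed, beside 27.6%, 17.4%, 43.8%, 25.4%, 39% and 3.23% of all genes. In ko over ctrl 0 of these genes passed by edgeR, and 1 reached an unadjusted p under 0.05, in Ly6Clo MHCIIhi.

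All 17 surface partners of tetraspanins listed are in the table. In Ly6Clo MHCIIlo over Ly6Chi MHCIIlo 12 of 15 tested passed, 4 higher and 8 lower, beside 39% of all genes, with a median fold of -0.30, against 0.015 over all genes. In Ly6Clo MHCIIhi over Ly6Chi MHCIIlo 9 of 14 passed, 1 higher and 8 lower, beside 43.8% of all genes, with a median of -0.55, against -0.0036 over all genes. Igsf8, the immunoglobulin-family partner of CD9 and CD81, was the higher one, at 184 CPM in Ly6Clo MHCIIhi and 68.0 CPM in Ly6Chi MHCIIlo (1.41, SE 0.15, adjusted p = 8.21e-09). It was higher as well in Ly6Clo MHCIIlo over Ly6Chi MHCIIlo (1.21, adjusted p = 3.29e-05) and in Ly6Clo MHCIIhi over Ly6Chi MHCIIhi (0.86, adjusted p = 0.00262, or 0.76 without Ly6Chi MHCIIhi ctrl replicate 1). Cd44, the hyaluronan receptor, ran opposite, at 294, 445, 634 and 1275 CPM in Ly6Clo MHCIIhi, Ly6Clo MHCIIlo, Ly6Chi MHCIIhi and Ly6Chi MHCIIlo. Its folds against Ly6Chi MHCIIlo were -2.14 for Ly6Clo MHCIIhi (adjusted p = 5.33e-16), -1.45 for Ly6Clo MHCIIlo (adjusted p = 7.52e-08) and -0.91 for Ly6Chi MHCIIhi (adjusted p = 0.0338), the last being the 1 of 14 partners that passed there, beside 3.23% of all genes. Without Ly6Chi MHCIIhi ctrl replicate 1 the last fold of Cd44 was -0.73 (adjusted p = 0.00564), its mean in that population was 710.2 CPM, and Ly6Clo MHCIIlo over Ly6Chi MHCIIhi passed as well (-0.65, adjusted p = 0.00245).

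Among integrins, Itga5, a fibronectin receptor chain, was lower in Ly6Clo MHCIIhi than in Ly6Chi MHCIIlo (-1.44, adjusted p = 4.01e-07), as was Itgam, the CD11b chain (-0.68, adjusted p = 4.60e-07). Itgb1, the common beta chain that many tetraspanins bind, was highest in Ly6Clo MHCIIlo at 228 CPM, with folds of -0.64 for Ly6Clo MHCIIhi over Ly6Clo MHCIIlo (adjusted p = 1.24e-05) and 0.71 for Ly6Clo MHCIIlo over Ly6Chi MHCIIhi (adjusted p = 0.00225), or 0.67 without Ly6Chi MHCIIhi ctrl replicate 1. Cd36, a scavenger receptor for lipids, had 75.4 CPM in Ly6Clo MHCIIlo, against 19.2 CPM in Ly6Clo MHCIIhi (-2.25 for Ly6Clo MHCIIhi over Ly6Clo MHCIIlo, adjusted p = 4.13e-08) and 6.63 CPM in Ly6Chi MHCIIlo (3.50 for Ly6Clo MHCIIlo over Ly6Chi MHCIIlo, adjusted p = 2.71e-10). Replicates of Ly6Chi MHCIIlo held 3.26 to 9.40 CPM of Cd36, which is few counts, so the size of the last fold is uncertain. Of 15 partners tested in Ly6Clo MHCIIhi over Ly6Clo MHCIIlo, 2 passed as higher and 6 as lower, beside 27.6% of all genes. In Ly6Clo MHCIIhi over Ly6Chi MHCIIhi the counts were 1 and 5 of 14 (17.4% of all genes), and in Ly6Clo MHCIIlo over Ly6Chi MHCIIhi 2 and 3 of 15 (25.4%). Without Ly6Chi MHCIIhi ctrl replicate 1 these were 1 and 7 of 14 (18.6%) and 2 and 4 of 15 (31.2%). None of them passed by edgeR in ko over ctrl, where 2, 0, 1 and 1 had an unadjusted p under 0.05 in the populations in their usual order.

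Of the late endosome and exosome genes 14 of 16 listed are in the table, and those that passed were higher in some comparisons and lower in others. In Ly6Clo MHCIIhi over Ly6Chi MHCIIlo 1 of 12 tested passed as higher and 4 as lower, beside 43.8% of all genes, with a median of -0.11. The lower ones were Chmp4b, an ESCRT-III subunit (-0.71, adjusted p = 2.99e-06), Rab27a, which brings vesicles to the membrane (-1.58, adjusted p = 3.91e-06), Lamp2, a lysosome membrane protein (-0.61, adjusted p = 8.09e-06), and Sdcbp, the CD63-binding syntenin (-0.36, adjusted p = 0.00228). In Ly6Clo MHCIIlo over Ly6Chi MHCIIlo, where 39% of all genes passed, 3 of 11 were higher, Lamp1 (0.49, adjusted p = 7.09e-04), the late endosome GTPase gene Rab7 (0.41, adjusted p = 0.0363) and Ap3d1 of the AP-3 adaptor that sorts CD63 (0.44, adjusted p = 0.0438), and Chmp4b was lower (-0.87, adjusted p = 6.71e-05). These folds are under 1 in size for Lamp1, Rab7 and Ap3d1, against 2.93 for Cd63 in the same comparison. In Ly6Clo MHCIIhi over Ly6Clo MHCIIlo 2 of 11 passed, both lower, Lamp2 (-0.43) and Rab7 (-0.41), beside 27.6% of all genes. The counts were 1 lower of 11 in Ly6Clo MHCIIhi over Ly6Chi MHCIIhi (17.4% of all genes), 2 higher and 1 lower of 11 in Ly6Clo MHCIIlo over Ly6Chi MHCIIhi (25.4%, with a median fold of 0.32), and 0 of 12 by edgeR in Ly6Chi MHCIIhi over Ly6Chi MHCIIlo, where 2 had an unadjusted p under 0.05. Without Ly6Chi MHCIIhi ctrl replicate 1 the counts were 2 lower of 11, 3 higher and 1 lower of 11, and 0 of 12 by edgeR. In ko over ctrl 0 passed by edgeR in each population.

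Genes with a pattern like that of a member were sought over the means of log2(CPM + 1) in the 8 groups, by the root mean square distance of centred means among 5605 genes. For Cd63 the nearest were Atad3a, a mitochondrial ATPase gene (distance 0.22), Apoe, the lipid carrier of macrophages (0.23), and Cd63-ps (0.26), where the median distance of all genes was 1.30. Apoe averaged 26187, 21528, 6803 and 3439 CPM in Ly6Clo MHCIIhi, Ly6Clo MHCIIlo, Ly6Chi MHCIIhi and Ly6Chi MHCIIlo. For Cd81 they were Gas6, a ligand for receptors of dying-cell uptake (0.26), Npl, a sialic acid lyase gene (0.27), and Apoe (0.29), with a median of 1.32. For Cd53 they were Nadk, an NAD kinase gene (0.12), Usp25, a deubiquitinase gene (0.13), and N4bp1 (0.14), with a median of 0.56. For Cd37 they were Ankrd44 (0.17), the B cell and myeloid kinase gene Btk (0.18) and Tfip11 (0.21), with a median of 0.73. For Cd82 they were Dars, an aspartyl-tRNA synthetase gene (0.21), Orc4, an origin recognition subunit gene (0.22), and Lman2l (0.24), with a median of 0.76. The group means of Cd9 spanned 0.99 on this scale, under the span of 1 required, so no gene is named for it. The 8 points share libraries and depth between genes, and several of these genes rest on few counts.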

How the data were processed

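Poly(A) RNA of sorted cells was sequenced from the 3′ end with a barcode per library, as the labels' protocols describe. The authors deposited counts, whole numbers per gene symbol and library with no recorded normalization. Genome build GRCm38, R 3.4.4 and DESeq2 1.18.1 come from the submitters' processing notes. No source used here names the aligner or counter, or says whether counts are reads or molecules.

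A row that names no gene (127 counts, 0.000967%) was left out. Both libraries of a replicate were summed, and libraries under 0.1 of the median total were left out (1 of 48). Replicates held 34362 to 891461 counts, so a single count is worth more in shallow ones, and SD over replicates is the error given. CPM used TMM-scaled sizes. Genes were kept by filterByExpr (minimum count 10, minimum total 15) and tested by edgeR 4.0.16 (quasi-likelihood F test, R 4.3.3) with p-values adjusted after Benjamini and Hochberg across the genes tested and a threshold of 0.05. Scripts were tested on simulated data. DESeq2 1.42.0 served as an alternative. A gene under the filter got an exact permutation test of log2(CPM + 1). Other alternatives were DESeq2 size factors, no count filter, other library choices, ctrl samples only, all 8 groups in 1 fit, a replicate block and leaving out each replicate; barcode matching and the added Cd63 pseudogene row were chosen after seeing the data.

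The named genes are the 6 members, up to 4 passing genes with the smallest p per list and comparison, and the 3 nearest profiles per member whose group means span over 1 in log2. Members and lists were chosen with earlier results of these data known. Coordinates are from GENCODE M21 and promoter windows from RefSeq. Equal replicate numbers were not taken as pairs, because no label states it and no comparison had every pair's correlation over 0.1. In Ly6Chi MHCIIhi over Ly6Chi MHCIIlo 6 of 7 pairs were over 0.1, so pairing there is not excluded.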

Additional observations from a re-analysis of the deposited data

How the results depend on the processing

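Of 2064 values recomputed, 10 counts of passing members moved by over 1.5 times. With the sign kept, 49 calls on single genes were lost and 10 were gained. Another 43 values changed sign, with or without a change of call. With ctrl samples alone 1 member passed in Ly6Clo MHCIIhi over Ly6Chi MHCIIhi, 1 in Ly6Clo MHCIIlo over Ly6Chi MHCIIhi and 0 in Ly6Chi MHCIIhi over Ly6Chi MHCIIlo, where fewer samples entered; with libraries under 100000 counts left out 4 passed in Ly6Clo MHCIIlo over Ly6Chi MHCIIhi. Leaving out single replicates gave 2 to 4 members there and 0 to 3 in Ly6Chi MHCIIhi over Ly6Chi MHCIIlo, and 0 in the genotype comparisons. Signs changed for Cd82 in Ly6Clo MHCIIhi over Ly6Chi MHCIIhi by DESeq2 (0.0061), with no count filter (0.095), all libraries (0.013), deeper libraries only (0.091) and library 1 only (0.085), and from -0.11 to 0.15 over single replicates left out. With ctrl samples alone Cd9 turned to 0.020 in Ly6Clo MHCIIhi over Ly6Chi MHCIIlo, and Cd37 to -0.73 in Ly6Clo MHCIIlo over Ly6Chi MHCIIhi and 0.47 in Ly6Chi MHCIIhi over Ly6Chi MHCIIlo. Cd53 in Ly6Clo MHCIIlo over Ly6Chi MHCIIhi was -0.0075 in deeper libraries and -0.028 to 0.091 over replicates left out, and Cd37 in Ly6Clo MHCIIlo over Ly6Chi MHCIIlo -0.13 to 0.10. For ko over ctrl, Cd53 in Ly6Clo MHCIIhi was 0.022 with library 1 only, and with no count filter Ly6Chi MHCIIhi gave 0.098 for Cd63 and 0.0019 for Cd53. Over replicates left out, ko over ctrl ran from -0.050 to 0.14 for Cd81 and -0.16 to 0.027 for Cd37 in Ly6Clo MHCIIhi, from -0.19 to 0.073 for Cd63, -0.049 to 0.20 for Cd9, -0.25 to 0.0046 for Cd81 and -0.16 to 0.060 for Cd82 in Ly6Clo MHCIIlo, and from -0.27 to 0.26 for Cd63 and -0.083 to 0.59 for Cd9 in Ly6Chi MHCIIhi. Between barcode classes Cd81 was -0.00044 with DESeq2 size factors, -0.018 with no count filter and -0.040 to 0.084 over replicates left out, and Cd82 -0.26 to 0.062. The cause of these changes was not tested. Counts over all genes moved by over 1.5 times with ctrl samples alone, to 325, 56, 1257, 31, 766 and 0 against 1199, 860, 2278, 898, 1498 and 133 in the population comparisons in the order of the report. Ly6Chi MHCIIhi over Ly6Chi MHCIIlo gave 303 genes with no count filter and 304 with all 8 groups in 1 fit, against 133. For ko over ctrl the main counts were 0, 1, 0 and 3 genes in Ly6Clo MHCIIhi, Ly6Clo MHCIIlo, Ly6Chi MHCIIhi and Ly6Chi MHCIIlo. DESeq2 gave 0, 2, 4 and 14, all 8 groups in 1 fit gave 2, 0, 36 and 3, and leaving out the count filter gave 57 in Ly6Clo MHCIIhi, 24 in Ly6Clo MHCIIlo, 61 in Ly6Chi MHCIIlo and a higher count still in Ly6Chi MHCIIhi. The interaction gave 112 genes with no count filter and 11 by DESeq2, 1 with all libraries and 0 with deeper libraries only, against 4; deeper libraries also gave 4 genes for ko over ctrl in Ly6Chi MHCIIhi, and DESeq2 gave 34 genes against 94 between barcode classes. Equal replicate numbers were not taken as pairs, as no label states it. Correlations were 0.0959 to 0.277 in Ly6Chi MHCIIhi over Ly6Chi MHCIIlo, where all 14 samples lay closest to their own number. In Ly6Clo MHCIIlo over Ly6Chi MHCIIhi 13 of 14 did, with correlations of 0.0312 to 0.106, a hint from the data and not from the design. In the other population comparisons 4 of 16, 2 of 14, 3 of 16 and 9 of 16 did, in the order of the report. A replicate block left 4, 2, 4, 2, 5 and 2 members passing in the population comparisons and 0 between genotypes. Over all genes it gave 732, 433, 1812, 843, 1801 and 148 against 1199, 860, 2278, 898, 1498 and 133 in the population comparisons, and 2, 9, 0 and 5 between genotypes. Between populations the block kept only replicate numbers found in both. Ly6Clo MHCIIhi replicates with numbers found in no other population were thus left out, and fewer samples entered its comparisons. Under the block 3 calls did not pass, Cd9 in Ly6Clo MHCIIhi over Ly6Chi MHCIIhi (-0.71, adjusted p = 0.0925), and Cd9 (-0.31, adjusted p = 0.155) and Cd82 (0.54, adjusted p = 0.125) in Ly6Clo MHCIIhi over Ly6Chi MHCIIlo; no other call of a member was lost. Low counts limit Cd82 and Cd37 in Ly6Chi MHCIIhi, which rest on 56 and 111 counts.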
